A study of Mus musculus with 157 samples.

Results

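The 10 transcripts described here encode the immediate early transcription factors Fos, Fosb, Jun, Junb, Jund, Egr1, Egr2 and Egr3, the immediate early nuclear protein Ier2, and the stress-inducible factor Atf3. They were taken by gene symbol from a table of 19600 genes, and each of the 10 symbols matched exactly 1 row. Tags were counted in polysome gradient fractions of primary splenic B cells from C57BL/6Babr mice. In the LPS group, cells were activated with lipopolysaccharide (LPS, a bacterial mitogen) at 10 µg/ml for 48 h. In the LPS+ET group they then received 20 µM etoposide, a topoisomerase II poison that causes DNA double strand breaks, for 4 h. In the LPS+ET+KU group, 10 µM KU55933, an inhibitor of the DNA damage kinase ATM, was added after 47 h of LPS and 1 h ahead of the etoposide. All 3 groups carried LPS and a final 3 min of cycloheximide at 100 µg/ml, which holds ribosomes on mRNA. If the LPS group was harvested at 48 h, the cells with etoposide were cultured longer, and culture time and drug cannot be told apart. Resting cells and cells given KU55933 without etoposide were not analysed here. The labels give neither the age nor the sex of the mice, nor how many mice went into a culture.

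Each treatment had 4 gradients of 13 fractions, in which fractions 4 to 7 held monosomes, 8 to 10 light polysomes and 11 to 16 heavy polysomes. The column names carry 4 library set tags, LUL15, LUL16, LUL17 and LUL18, and every set held 1 gradient of each treatment. The 156 libraries held between 14724 and 4170688 counts, with a median of 811932. Of the 12 libraries under 100000 counts, 5 were from fraction 4. Summed over its fractions, a gradient held 6404957 to 21449781 counts. The smallest was the LPS+ET gradient of LUL16, which stood apart: heavy polysomes supplied 30.4% of its counts, against 60.5% to 68.2% in the other LPS+ET gradients, and light polysomes supplied 40.6%. Monosomes supplied 28.4% to 34% of the counts in the LPS+ET+KU gradients and 13.7% to 17.6% in the LPS gradients, and the part of these differences in the results was not tested. A second measure, with every fraction given equal weight, is set beside the summed level where it changes a call. The B-cell markers Cd79a, Cd79b, Ms4a1 and Cd22 were all present and summed to 1320 to 1560 counts per 1000000 tags (CPM) after LPS alone, 709 to 829 with etoposide and 760 to 1210 with the inhibitor added. Their sum was thus lower in every gradient with etoposide than in any with LPS alone, and its part in the results was not tested. The 4 T-cell markers counted summed to at most 2.31 CPM, and 6 myeloid markers to 33.6 to 94.3, 45.5 to 157 and 29.1 to 121 CPM in the same order.

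Immediate early genes are transcribed within minutes of a stimulus by factors that are already in the cell, such as serum response factor with its Elk partners and Creb1, and their transcripts are usually short-lived. Fos, Fosb, Jun, Junb and Jund are basic leucine zipper proteins that pair with each other to form the AP-1 complex. Egr1, Egr2 and Egr3 are zinc finger factors that bind GC-rich sites and follow antigen receptor and mitogen signals in lymphocytes. Atf3 belongs to the same zipper superfamily and is induced by several stresses, among them DNA damage and the integrated stress response. Position in a sucrose gradient reports how many ribosomes a transcript carries, so a level here is a level on ribosomes, relative to all tags, and fewer cells or less RNA per cell could not be told apart.

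RefSeq start-site sequences (GRCm38.p6, a window running from upstream of each start to just past it) were matched by symbol for 7 of the 10 genes. They are shown for 4 AP-1 members and Atf3, because these genes changed on ribosomes in the comparisons that follow. Capitals mark TGACG, the core of the cAMP response element, on either strand, or TGACATCA, the variant element at which Jun dimers bind.

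Fos (chr12:85473640-85473939, plus strand): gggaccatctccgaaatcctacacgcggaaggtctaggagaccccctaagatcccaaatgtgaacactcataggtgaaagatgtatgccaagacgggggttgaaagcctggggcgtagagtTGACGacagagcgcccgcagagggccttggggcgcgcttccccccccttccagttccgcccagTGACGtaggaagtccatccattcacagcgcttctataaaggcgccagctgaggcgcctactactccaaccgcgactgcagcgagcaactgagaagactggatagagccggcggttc
Fosb (chr7:19309996-19310295, minus strand): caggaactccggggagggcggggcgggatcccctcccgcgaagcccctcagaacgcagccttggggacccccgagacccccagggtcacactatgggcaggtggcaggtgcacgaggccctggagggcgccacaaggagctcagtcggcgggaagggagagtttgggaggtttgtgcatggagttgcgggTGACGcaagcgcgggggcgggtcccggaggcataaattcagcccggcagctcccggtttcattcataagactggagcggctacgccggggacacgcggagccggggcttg
Jun (chr4:95052173-95052472, minus strand): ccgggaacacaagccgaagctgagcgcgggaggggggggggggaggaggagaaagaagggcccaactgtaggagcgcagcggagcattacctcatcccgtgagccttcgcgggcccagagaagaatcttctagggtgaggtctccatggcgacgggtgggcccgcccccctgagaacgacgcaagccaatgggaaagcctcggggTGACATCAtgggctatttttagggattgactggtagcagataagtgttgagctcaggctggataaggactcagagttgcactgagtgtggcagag
Junb (chr8:84978699-84978998, minus strand): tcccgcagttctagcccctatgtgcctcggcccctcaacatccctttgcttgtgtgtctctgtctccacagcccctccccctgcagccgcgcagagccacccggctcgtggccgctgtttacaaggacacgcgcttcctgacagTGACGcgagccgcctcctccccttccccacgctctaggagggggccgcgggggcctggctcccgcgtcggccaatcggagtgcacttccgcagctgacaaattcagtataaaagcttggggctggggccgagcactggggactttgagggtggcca
Atf3 (chr1:191183284-191183583, minus strand): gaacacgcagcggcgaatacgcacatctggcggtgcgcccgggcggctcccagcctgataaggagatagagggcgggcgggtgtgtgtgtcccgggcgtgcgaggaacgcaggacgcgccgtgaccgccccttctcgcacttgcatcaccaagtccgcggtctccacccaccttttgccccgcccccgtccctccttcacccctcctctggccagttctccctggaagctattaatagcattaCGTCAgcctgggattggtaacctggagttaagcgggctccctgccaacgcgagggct

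In all, 7 motifs were searched on both strands, where TGACG lies inside TGACGTCA. TGACG was found in 5 of the 7 genes with a sequence (Atf3, Egr2, Fos, Fosb and Junb) and in 20.8% of all 32851 start-site sequences. Its hit began 66 and 129 bases before the start in Fos, 60 before it in Fosb, 106 before it in Junb and, on the reverse strand, 7 before it in Atf3. TGACATCA lay 45 bases before the start of Jun, and was present in 3.62% of all start-site sequences. The full palindrome TGACGTCA (1.79% of sequences) and the AP-1 site TGACTCA (5.2%) were in none of the 7. A CArG box, the serum response factor element, was found at Egr2 alone among the 7, against 1.63% of sequences. Egr1, Egr3 and Ier2 had no sequence, and elements further upstream than the windows were not searched. The Jund window (chr8:70697489-70697788) ended ahead of the annotated start of that gene at 70698949. Absence of a motif from these windows therefore does not show that a gene lacks it. GGGCGG was present in 5 of the 7 and 35.7% of all, and TATAAA in 2 of the 7 and 13.6% of all. A match describes the letters of the window and is not a measured binding site.

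The counted tags came from transcript ends. The most counted position lay within 5 bases of an annotated transcript end for 9 of the genes and 718 bases from one for Jun, which had 3 counted positions. Coding regions ran from 543 bases in Atf3 and 663 in Ier2 to 1410 in Egr2 and 1599 in Egr1, against a median of 1281 over 11334 tested genes. ATTTA, the core of AU-rich decay elements, occurred 4 times in the 3′ untranslated regions of Fos and Jun, 2 times in Junb, 3 times in Atf3, 7 times in Egr3, 1 time in Jund and not at all in Ier2. Per kilobase that was 4.91 for Fos, 4.12 for Junb and 3.24 for Jun, where 19.3% of tested genes held 3 or more and the median was 1.06. These counts cover the whole annotated 3′ untranslated region. Windows of 30 bases (GRCm38, GENCODE M21) holding the pentamer are given for the 3 genes above that limit and for Jund. Jund is their AP-1 partner below it, and ATTTA is in capitals. The Jun window lies between its most counted position and the annotated transcript end, so transcripts ending at that position lack it.

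Fos (chr12:85477100-85477129, plus strand): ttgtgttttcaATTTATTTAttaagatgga
Jun (chr4:95049207-95049236, minus strand): atcATTTAtaatcataggaaagATTTAgta
Junb (chr8:84977127-84977156, minus strand): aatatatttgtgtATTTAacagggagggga
Jund (chr8:70700358-70700387, plus strand): ccgattccgccctATTTAtgtttctactcg

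In LPS-activated cells the members lay far apart on ribosomes. Since each transcript yields tags from its end only, levels were compared as CPM scaled by TMM factors, without correction for length. Jund led at 228 ± 39.1 (SD, n = 4), rank 766 of 19600 genes, and Junb followed at 186 ± 51.3. These neighbours overlapped. Atf3 stood at 45.9 ± 2.62, Egr1 at 30.3 ± 5.08, Ier2 at 29.8 ± 5.31 and Jun at 29.5 ± 6.41, where the last 3 could not be ranked within their spread. Egr3 followed at 13.1 ± 2.84. Egr2, Fos and Fosb were close to the detection limit, with 35, 24 and 7 counts over the 4 gradients together. With etoposide Junb stood above Jund (492 ± 134 against 186 ± 89.0), and with KU55933 as well Junb reached 661 ± 153, rank 188.

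**Figure D1:**
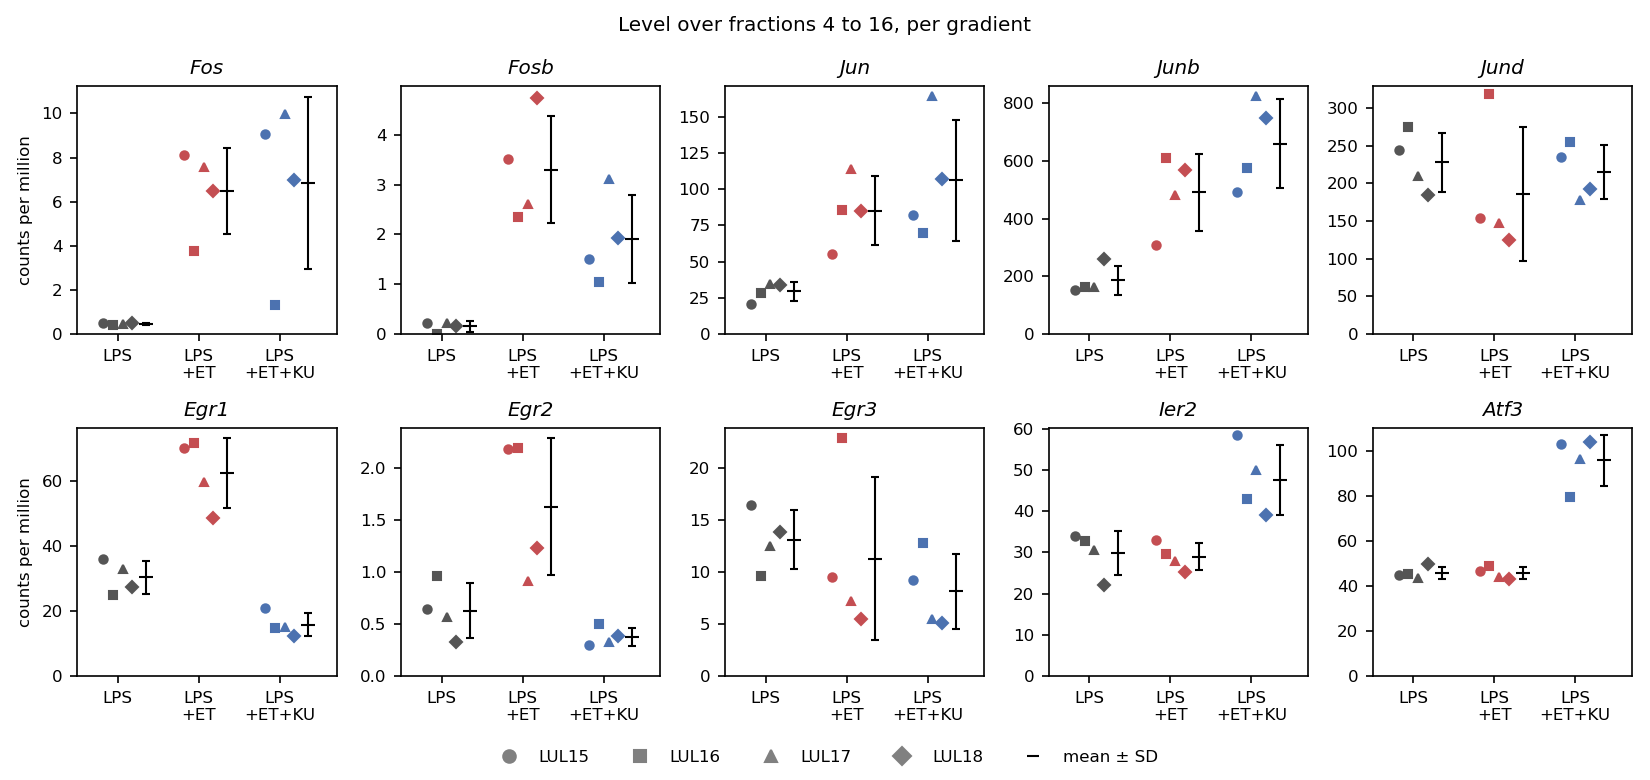
Level of each transcript (CPM over fractions 4 to 16, y axes from 0, TMM scaled) in the 12 gradients by treatment; marker shapes are library sets, and bars are mean ± SD of 4 gradients. Fos, Fosb, Jun, Junb and Egr1 lay higher in every LPS+ET gradient than in any LPS gradient. Of all tested genes, 27.5% had LPS+ET and LPS groups that did not overlap. Egr1 fell below both in LPS+ET+KU, and Atf3 rose in LPS+ET+KU alone. Groups did not overlap in 8.57% of tested genes between LPS+ET+KU and LPS+ET, and in 26.4% between LPS+ET+KU and LPS.

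Etoposide raised 5 of the 10 transcripts on ribosomes and lowered none. Fos, Fosb, Jun, Junb and Egr1 passed an adjusted p of 0.01 (edgeR quasi-likelihood test, Benjamini-Hochberg over 12755 genes), a threshold that 7.88% of all tested genes passed upwards, 4.81% downwards and 12.7% in all. The median log2 fold change was 1.18 over the 10 members and 0.03 over all tested genes. The count of 5 and the median of 1.18 include Fos and Fosb, with 24 and 7 counts in LPS. These 2 passed the filter on low counts through the groups with etoposide. Without the LPS+ET gradient of LUL16 the count was again 5.

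Among the Fos family, Fos and Fosb went from near absence to a low but countable level. Fos, the founding AP-1 partner of Jun, stood at 0.504, 0.398, 0.453 and 0.497 CPM in the LPS gradients of LUL15, LUL16, LUL17 and LUL18. In LPS+ET the same sets gave 8.11, 3.76, 7.56 and 6.50 CPM. Every etoposide gradient lay above every LPS gradient, with LUL16 the lowest, where groups did not overlap in 27.5% of tested genes. The log2 fold change was 3.80 ± 0.56 (SE, adjusted p = 0.000293). Fosb, a homologue that can replace Fos in AP-1, was counted 3, 0, 2 and 2 times in the LPS gradients and 45, 15, 34 and 54 times in the LPS+ET gradients. Its log2 fold change was 4.49 ± 0.61 (adjusted p = 0.000165), on a baseline of 7 counts. With equal weight per fraction and 0.5 CPM added, the values were 2.96 for Fos and 2.28 for Fosb, both still past the threshold.

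Of the Jun family, Jun and Junb rose and Jund did not pass. Jun, the main transactivating AP-1 subunit, stood at 20.8, 28.6, 34.5 and 34.1 CPM in LPS and at 55.5, 85.9, 114 and 85.2 CPM in LPS+ET. The groups did not overlap (27.5% of tested genes had this property), and the log2 fold change was 1.53 ± 0.29 (adjusted p = 0.00200). Junb, which can restrain Jun and has its own targets in B cells, stood at 152, 164, 164 and 262 CPM in LPS and at 309, 611, 481 and 569 CPM in LPS+ET. Its lowest etoposide gradient, LUL15, was above its highest LPS gradient, LUL18, and the log2 fold change was 1.41 ± 0.26 (adjusted p = 0.00162). Jund, the constitutive Jun protein, stood at 244, 274, 210 and 184 CPM in LPS and at 154, 318, 147 and 125 CPM in LPS+ET. Set LUL16 went the opposite way to the other 3 sets. The log2 difference was -0.30 ± 0.27 (adjusted p = 0.495) with all gradients and -0.69 (adjusted p = 0.0195) without the LPS+ET gradient of LUL16, so no call was made either way.

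In the Egr family, Egr1 rose and Egr3 did not pass, while the call for Egr2 depended on the fit. Egr1 stood at 36, 24.9, 33 and 27.3 CPM in LPS and at 70.2, 71.5, 59.7 and 48.6 CPM in LPS+ET. The lowest etoposide value was above the highest LPS value, where groups did not overlap in 27.5% of tested genes. The fold change on the log2 scale was 1.04 ± 0.20 (adjusted p = 0.00202), although with equal weight per fraction it was 0.85 and not called (adjusted p = 0.0385). Egr2 was counted 35 times in all in LPS and 68 times in LPS+ET and was higher with etoposide in 4 of 4 sets. Its log2 difference of 1.32 ± 0.43 did not pass (adjusted p = 0.0408), but it was called with library set as a block (1.37, adjusted p = 0.00613) and with equal weight per fraction (1.65, adjusted p = 0.00280). Egr3 ranged from 9.66 to 16.5 CPM in LPS and from 5.53 to 22.9 CPM in LPS+ET (log2 difference -0.24 ± 0.41, adjusted p = 0.736), and LUL16 again held the highest etoposide value.

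Neither Ier2 nor Atf3 passed the test with etoposide. Ier2 ranged from 22.1 to 33.9 CPM in LPS and from 25.3 to 33.1 CPM in LPS+ET, with a log2 difference of -0.04 ± 0.18 (adjusted p = 0.906). Atf3 stood at 44.9, 45.3, 43.7 and 49.7 CPM in LPS and at 46.8, 48.7, 44.1 and 43.1 CPM in LPS+ET. The groups covered the same range, and the difference of -0.01 ± 0.14 (adjusted p = 0.978) had the smallest standard error of the 10 members.

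**Figure D2:**
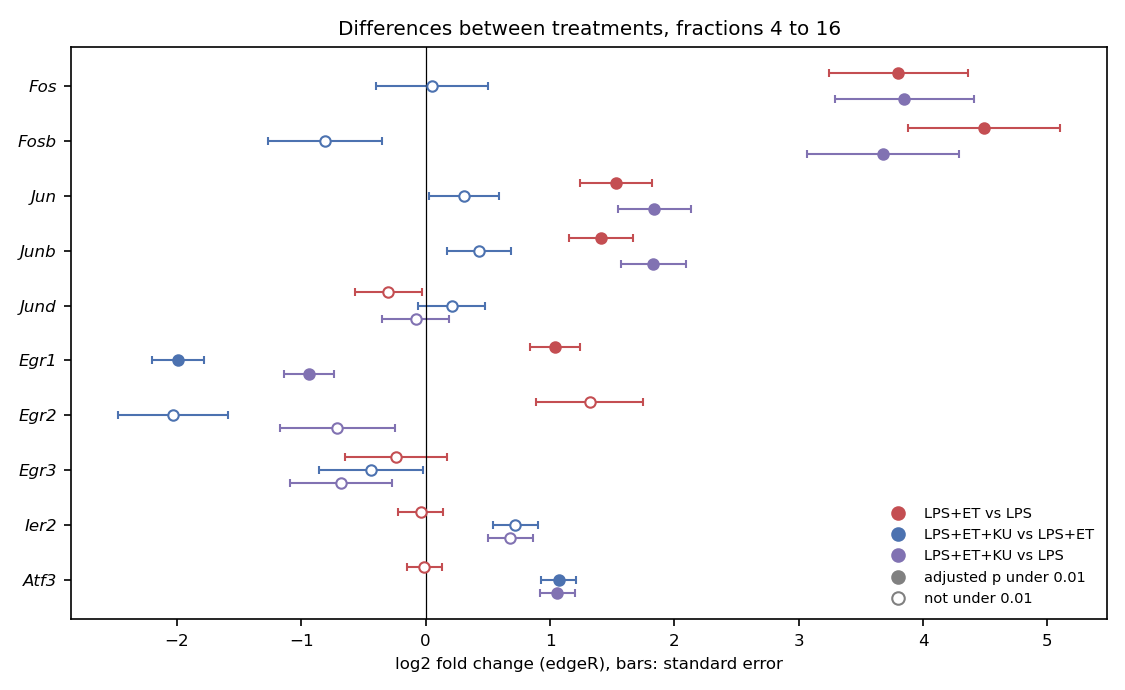
Log2 fold change of each transcript over fractions 4 to 16 in the 3 treatment comparisons (x axis; points are edgeR estimates, bars their standard error, filled points passed an adjusted p of 0.01). Etoposide values lay above 1 for Fos, Fosb, Jun, Junb, Egr1 and Egr2, with Egr2 not called, and KU55933 moved Egr1 down by 1.99 and Atf3 up by 1.07.

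With the ATM inhibitor present, 2 members changed against etoposide alone. Against LPS+ET, Egr1 fell and Atf3 rose in LPS+ET+KU, so that 2 of 10 members passed where 0.455% of 12755 tested genes did (0.22% upwards and 0.235% downwards). The median log2 difference was 0.13 over the members and 0.04 over all tested genes. These 2 calls used the spread of all 12 gradients. From the 8 gradients compared alone, no gene passed, and the adjusted p was 0.0166 for Egr1 and 0.0269 for Atf3. With library set as a block, 4 members and 811 genes passed, and with DESeq2 3 members and 412 genes. The count of 58 genes behind the background share was 19 to 31 without the LPS+ET gradient of LUL15, LUL17 or LUL18 or the LPS+ET+KU gradient of LUL15, LUL17 or LUL18, and 172 without the LPS+ET gradient of LUL16.

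Egr1 stood at 20.8, 14.8, 15.0 and 12.4 CPM in LPS+ET+KU, below every LPS+ET gradient and also below every LPS gradient. The log2 fold change was -1.99 ± 0.21 against LPS+ET (adjusted p = 0.000870) and -0.94 ± 0.20 against LPS (adjusted p = 0.00495). Only 8.57% of tested genes had LPS+ET+KU and LPS+ET groups that did not overlap. Egr2 had 24 counts in LPS+ET+KU against 68 in LPS+ET and a lower value in 4 of 4 sets. Its log2 difference of -2.03 ± 0.44 was not called (adjusted p = 0.0345), but it was called with the block (-2.03, adjusted p = 0.00284) and with DESeq2 (-2.06, adjusted p = 0.00557). Egr3 was lower in 4 of 4 sets with overlapping groups (-0.44 ± 0.42, adjusted p = 0.670).

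Atf3 stood at 103, 79.6 and 96.5 CPM in the LPS+ET+KU gradients of LUL15, LUL16 and LUL17, and its highest value was that of LUL18. The lowest, LUL16, was well above the 49.7 CPM that was the highest value in either other treatment. The log2 fold change was 1.07 ± 0.14 against LPS+ET (adjusted p = 0.00199) and 1.06 ± 0.14 against LPS (adjusted p = 0.000225). Against LPS+ET it was not called with equal weight per fraction (0.99, adjusted p = 0.0112), nor without the LPS+ET gradients of LUL15, LUL17 or LUL18 or the LPS+ET+KU gradient of LUL18, where it was 1.03 to 1.08 with an adjusted p of 0.0104 to 0.0164. Ier2 stood at 58.4, 42.9, 50.0 and 39.2 CPM in LPS+ET+KU, above all LPS+ET and LPS gradients. Its log2 difference of 0.72 ± 0.18 did not pass (adjusted p = 0.0579) and was called with the block (0.71, adjusted p = 0.00256).

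The AP-1 members that rose with etoposide were also high with the inhibitor present. Against LPS, Fos (3.85 ± 0.56), Fosb (3.68 ± 0.61), Jun (1.84 ± 0.29) and Junb (1.83 ± 0.26) passed in LPS+ET+KU with adjusted p between 0.000409 and 0.00111. Together with Atf3 and Egr1 that was 6 of 10 members, where 10.7% of tested genes passed (6.25% upwards and 4.42% downwards). Of these members, Fos and Fosb passed the filter on low counts through the groups with etoposide. Ier2 was called as well with library set as a block (0.68, adjusted p = 0.000727), with DESeq2 (0.64, adjusted p = 0.00814) and with equal weight per fraction (0.89, adjusted p = 0.00999). Equal weight cost the calls of Fosb (1.80, adjusted p = 0.0111) and Egr1 (-0.94, adjusted p = 0.0256) in this comparison. Egr1 also lost it from the 8 gradients compared alone (-0.95, adjusted p = 0.0126), without the LPS gradient of LUL15, LUL17 or LUL18, and without the LPS+ET+KU gradient of LUL17 or LUL18, where it stood at -1.0 to -0.85. Groups that did not overlap were found for these 7 members and for 26.4% of tested genes, and both etoposide comparisons used the same 4 LPS gradients. Against LPS+ET none of the 4 was called. Jun stood at 81.8, 69.8, 164 and 107 CPM in LPS+ET+KU and Junb at 493, 577, 826 and 749 CPM, each higher than LPS+ET in 3 of 4 sets (log2 0.31 ± 0.28, adjusted p = 0.655, and 0.43 ± 0.26, adjusted p = 0.455). Fos ranged from 1.32 CPM in LUL16 to 9.99 CPM in LUL17 (0.05 ± 0.45, adjusted p = 0.968). Fosb was lower in 3 of 4 sets (-0.81 ± 0.46, adjusted p = 0.425). Jund ranged from 178 to 255 CPM and overlapped both other treatments (0.21 ± 0.27 against LPS+ET, adjusted p = 0.768; -0.08 ± 0.27 against LPS, adjusted p = 0.854).

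Each transcript had its own profile across the gradient. Within a fraction, levels are CPM of that library. A class share is the sum of those over its fractions as a percent of the gene's sum, with equal weight per fraction. Equal RNA concentrations went into the libraries, so the RNA amount of each fraction is lost. A share is thus not the portion of a gene's mRNA in a class. Jund was a light-polysome transcript in each treatment. It peaked at fraction 9 in LPS, at 486 ± 89.1 CPM, with 443 ± 125 in fraction 8 and 393 ± 61.4 in fraction 10. In LPS 51.5% ± 1.87 of its signal was in light polysomes, against a median of 21.2% over the 8000 genes with a mean of at least 100 counts a gradient, and 29.9% ± 3.33 was in heavy polysomes against a median of 55.3%. The light share was 54.6% ± 1.78 with etoposide and 51.2% ± 4.87 when the inhibitor was added.

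Jun and Junb, of nearly the same coding length as Jund, peaked further down the gradient. Jun was highest in fraction 14 in LPS (55.0 ± 11.2 CPM) and LPS+ET (233 ± 39.4) and in fraction 15 in LPS+ET+KU (386 ± 234), with 68.3% ± 4.54 of its LPS signal in heavy polysomes and 11.0% ± 3.28 in light polysomes. Junb peaked at fraction 14 for LPS (298 ± 177 CPM), 13 for LPS+ET (863 ± 469) and again 14 for LPS+ET+KU (1740 ± 414). All 4 LPS+ET+KU gradients had their Junb maximum in fraction 14. Heavy polysomes held 52.9% ± 2.98, 57.2% ± 6.99 and 60.8% ± 7.86 of the Junb signal in LPS, LPS+ET and LPS+ET+KU. Jun also showed a shoulder at fractions 4 and 5, of 95.3 ± 33.7 CPM in fraction 5 of LPS+ET against 34.6 ± 10.1 in fraction 10.

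Of the 7 members with a mean of at least 100 counts a gradient, Egr1 had the highest monosome share in each treatment. In LPS it was highest in fractions 4 (93.5 ± 55.1 CPM) and 5 (65.8 ± 25.4) and stayed between 16.7 and 44.6 CPM on average in fractions 6 to 16. The mean of fraction 4 rests on only 26 counts, and that of fraction 5 on 118. With all tags of a class pooled, Egr1 in LPS stood at 34.4 CPM in monosomes, 33.5 in light and 23.6 in heavy polysomes. Monosomes held 44.3% ± 3.35 of its signal after LPS alone, 37.4% ± 4.99 with etoposide and 39.7% ± 7.18 with the inhibitor added, against medians of 18.7% to 19.6% over genes. The signal-weighted mean fraction was 8.63 ± 0.191 in LPS, lighter than all but 6.31% of those 8000 genes. In LPS+ET its means were 82.7 ± 37.3 CPM in fraction 13 and 78.3 ± 8.85 in fraction 14, where LPS had 26.7 ± 4.28 and 25.2 ± 8.09. Its heavy share was 31.9% ± 1.13 in LPS and 42.1% ± 5.16 with etoposide, a difference that was not called (0.64 ± 0.29 on the log2 odds scale, adjusted p = 0.237).

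Atf3 was centred on fractions 8 to 12. In LPS its means were 44.2 to 64.7 CPM over those fractions and 18.5 to 37.3 elsewhere. In LPS+ET+KU the maximum was 176 ± 41.6 CPM in fraction 11 and 147 ± 30.2 in fraction 12, against 49.6 ± 33.9 and 56.0 ± 18.7 in LPS+ET. Heavy polysomes held 48.1% ± 6.99 of the Atf3 signal after LPS, 49.5% ± 3.08 with etoposide and 57.0% ± 2.48 with the inhibitor added. The difference between LPS+ET (46.5% to 53.1%) and LPS+ET+KU (54.8% to 60.2%) was not called (0.44 ± 0.22 on the log2 odds scale, adjusted p = 0.584).

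Ier2 was spread over all 3 classes, with its LPS maximum in fraction 8 in all 4 gradients (46.1 ± 9.26 CPM) and 35.5% ± 4.81 of its signal in light polysomes. Egr3 in LPS had means of 8.37 to 9.84 CPM in fractions 5 to 9 and of 12.0 to 17.2 CPM in fractions 10 to 14, with the highest in fraction 13. For Fos, the highest LPS+ET means were in fractions 4 (20.0 ± 21.4 CPM), 5 (15.1 ± 7.81) and 6 (11.2 ± 8.26), though the 4 monosome fractions together held only 75 counts. Fosb had its LPS+ET maximum in fraction 14 (9.75 ± 3.85 CPM), and 117 of its 148 counts came from heavy polysomes.

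**Figure D3:**
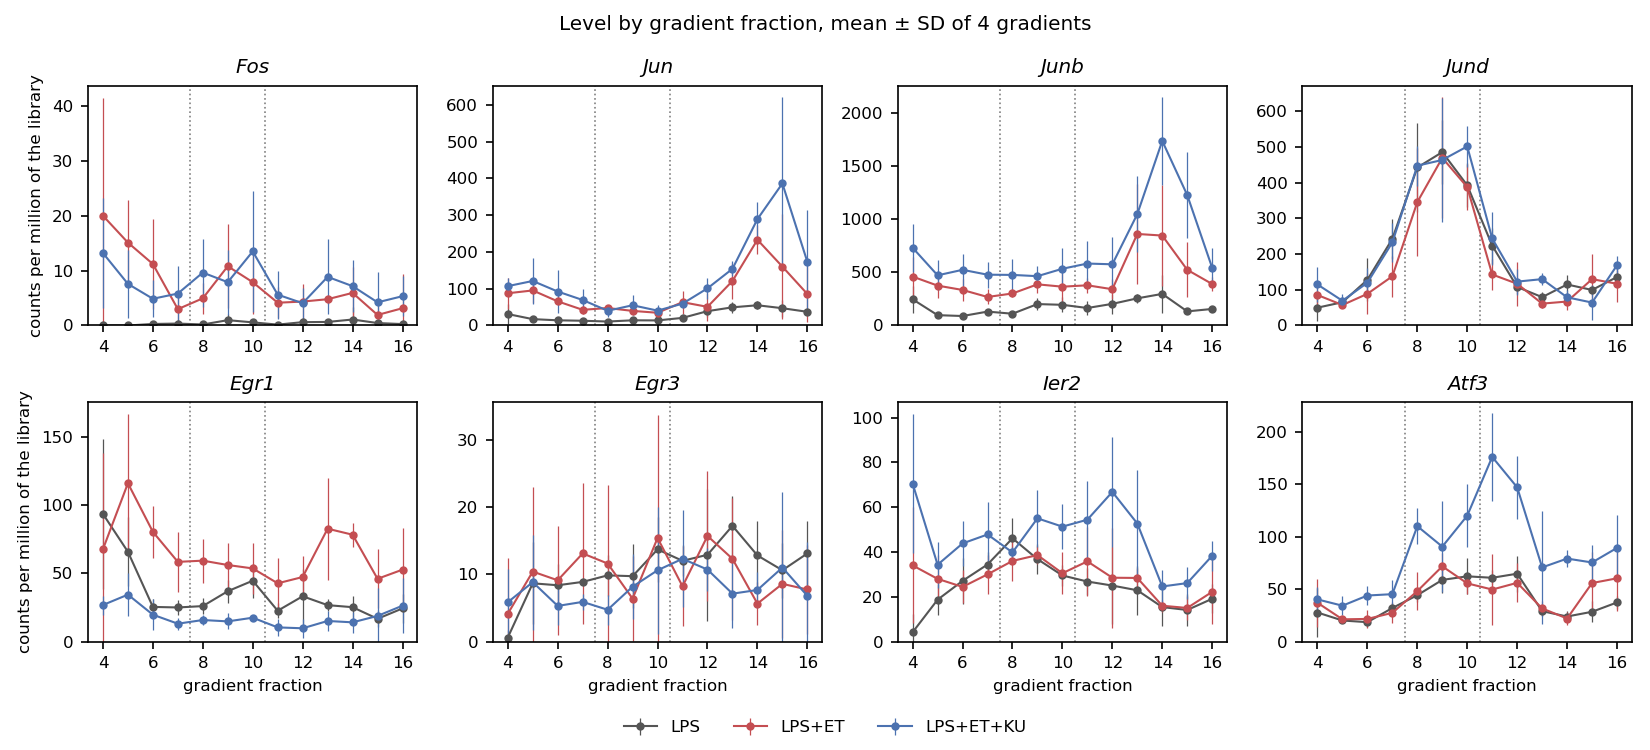
Mean level (CPM of each library, y axes from 0) of 8 transcripts in fractions 4 to 16 by treatment, with SD over 4 gradients; dotted lines part monosomes, light and heavy polysomes. By mean level, Jund peaked in fractions 8 to 10 in each treatment and Jun and Junb in fractions 13 to 15. Atf3 in LPS+ET+KU peaked in fraction 11. The Egr1 mean was highest in fraction 4 in LPS and in fraction 5 in the other treatments. In single gradients its maximum lay in fractions 5, 13, 5 and 6 in LPS+ET and 16, 15, 5 and 4 in LPS+ET+KU.

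These profiles were tested by comparing heavy polysomes with monosomes within a treatment, with the gradient as a block. In LPS, where 29.5% of 9659 tested genes were called higher and 29.9% lower in heavy polysomes, Jun was higher in heavy polysomes (0.60 ± 0.16, adjusted p = 0.00180). Egr1 (-1.27 ± 0.14, adjusted p = 2.86e-09), Ier2 (-0.84 ± 0.16, adjusted p = 2.25e-05) and Jund (-0.78 ± 0.13, adjusted p = 2.40e-06) were lower. So 4 of the 7 members tested were called against 59.4% of genes, which does not set the members apart. In LPS+ET, 2 of 8 members passed against 40.3% of genes (21.9% higher and 18.4% lower), Fos at -2.02 ± 0.31 (adjusted p = 4.57e-05) and Egr1 at -1.15 ± 0.27 (adjusted p = 0.00204). In LPS+ET+KU, 4 of 9 passed against 50.2% of genes (24.5% higher and 25.7% lower), with Egr1 (-1.62 ± 0.20), Fos (-0.97 ± 0.28) and Jund (-0.56 ± 0.17) lower and Atf3 higher (0.93 ± 0.17, adjusted p = 0.000107). Without the block, Jun in LPS (adjusted p = 0.0768), Egr1 in LPS+ET (0.0192) and Fos (0.281), Jund (0.0506) and Atf3 (0.0102) in LPS+ET+KU no longer passed. Fos and Jund in LPS+ET+KU also missed the threshold with DESeq2 (adjusted p = 0.0423 and 0.0129) and with no filter on low counts (0.0109 and 0.0740). Members called in LPS+ET were 1 without LUL15 or LUL17 and 4 without LUL16, and in LPS+ET+KU 2 without LUL15.

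The rise with etoposide was measured in each gradient class. Fos had 2 counts in LPS monosomes, 7 in LPS light polysomes and 15 in LPS heavy polysomes, and Fosb 4 in LPS heavy polysomes. Their fold changes below thus rest on near-zero baselines, and both passed the filter on low counts through the groups with etoposide. In monosomes 4 of 8 tested members rose (Fos 5.55 ± 0.98, Jun 2.34 ± 0.39, Junb 1.81 ± 0.26 and Egr1 1.44 ± 0.29), where 6.44% of 8932 genes rose, 3.08% fell and 9.52% passed in all. In heavy polysomes 5 of 9 rose, where 6.14% of 11368 genes did, 3.55% fell and 9.69% passed in all: Fosb by 4.93 ± 0.56, Fos by 3.26 ± 0.57, Junb by 1.74 ± 0.37, Jun by 1.61 ± 0.32 and Egr1 by 1.39 ± 0.30. In light polysomes 2 of 8 rose, Fos (3.93 ± 0.76) and Jun (1.59 ± 0.34), where 6.56% of 9922 genes did, 4.07% fell and 10.6% passed in all. The light polysome values were 1.07 ± 0.28 for Junb (adjusted p = 0.0138) and 0.64 ± 0.19 for Egr1 (adjusted p = 0.0258). With library set as a block both were called (1.03, adjusted p = 8.76e-05 and 0.65, adjusted p = 0.00366), and Junb also with DESeq2 (1.05, adjusted p = 0.00231) and from the 8 gradients compared alone (1.10, adjusted p = 0.00708). Jund stood at -0.72 ± 0.20 in monosomes (adjusted p = 0.0211) and -0.63 ± 0.18 in heavy polysomes (adjusted p = 0.0263), and both were called with the block (-0.72, adjusted p = 0.000288 and -0.63, adjusted p = 0.00836) and with DESeq2 (-0.76, adjusted p = 0.00417 and -0.62, adjusted p = 0.000338). In monosomes Jund also passed without the LPS+ET gradient of LUL16 (-0.95, adjusted p = 0.00535). Leaving out single gradients cost calls. In monosomes Egr1 was called in 3 of 8 such fits, and lost its call without the LPS gradient of LUL15, LUL16 or LUL18 or the LPS+ET gradient of LUL15 or LUL17 (1.16 to 1.46, adjusted p = 0.0105 to 0.0186). Among LPS gradients, without LUL15, and likewise without LUL16, 2 members passed in heavy polysomes and 0 in light polysomes. Without the LPS gradient of LUL17, 3 passed in heavy polysomes. In light polysomes 1 passed without the LPS gradient of LUL18 or the LPS+ET gradient of LUL17 or LUL18.

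With the inhibitor, Egr1 fell in all 3 classes against LPS+ET, by 2.09 ± 0.30 in monosomes, 2.00 ± 0.20 in light and 2.53 ± 0.32 in heavy polysomes on the log2 scale (adjusted p = 0.00375, 0.000406 and 0.00149). Downward calls were made for 0.146%, 0.151% and 0.317% of tested genes in these classes. Atf3 rose in heavy polysomes (1.47 ± 0.20, adjusted p = 0.00260), where 0.255% of genes did, against 0.0672% in monosomes and 0.141% in light polysomes. In either direction 0.213%, 0.292% and 0.572% of genes passed. In monosomes it stood at 0.79 ± 0.22 (adjusted p = 0.116, and 0.76 with adjusted p = 0.00913 under the block) and in light polysomes at 0.72 ± 0.20 (adjusted p = 0.0856). With the block, Jund in monosomes (0.71, adjusted p = 0.00153) and Ier2 in heavy polysomes (0.77, adjusted p = 0.00739) were called too, where the fits without it gave 0.69 (adjusted p = 0.124) and 0.79 (adjusted p = 0.0921). Jund in heavy polysomes stood at 0.71 ± 0.18 (adjusted p = 0.0671) and was called with DESeq2 (0.69, adjusted p = 0.000242). From the 8 gradients compared alone, Egr1 kept its call in light polysomes and lost it in monosomes (adjusted p = 0.0232) and heavy polysomes (0.0197), and Atf3 lost it in heavy polysomes (0.0292). Without the LPS+ET gradient of LUL15, LUL17 or LUL18, or the LPS+ET+KU gradient of LUL18, 0 members passed in monosomes and 1 in heavy polysomes, and without the LPS+ET+KU gradient of LUL17 0 passed in monosomes.

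No member passed a test of its distribution along the gradient alone, but the heavy share test could miss moderate shifts. In simulated data for etoposide against LPS it recovered 98% of genes whose heavy polysome level was changed by a log2 of 2. It recovered 13% of those changed by a log2 of 1. The changed genes came from above a higher count limit than that of the test. Each library was drawn independently, without spread shared within a gradient or library set. Recovery for the members may therefore be lower. Heavy polysome shares could be tested for those 7 members: none was called for LPS+ET against LPS, where 0.35% of 8000 genes were, and none for LPS+ET+KU against LPS+ET, where 0.0% were. Limma made 0 calls in that second comparison, with 705 genes at an unadjusted p under 0.05, and 0 with library set as a block. A test over all 13 fractions at once, of level and shape together, called Fos, Jun, Junb, Jund and Egr1 for etoposide (31% of 10360 genes) and Jund, Egr1, Egr2, Ier2 and Atf3 for the inhibitor (8.01% of 10472 genes). Its shape term alone called 142 and 110 genes and no member. This test treated the 13 libraries of a gradient as independent, so its p-values do not measure the spread between gradients. Jund, called here for etoposide, was not called in the summed test on gradients (adjusted p = 0.495).

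**Figure D4:**
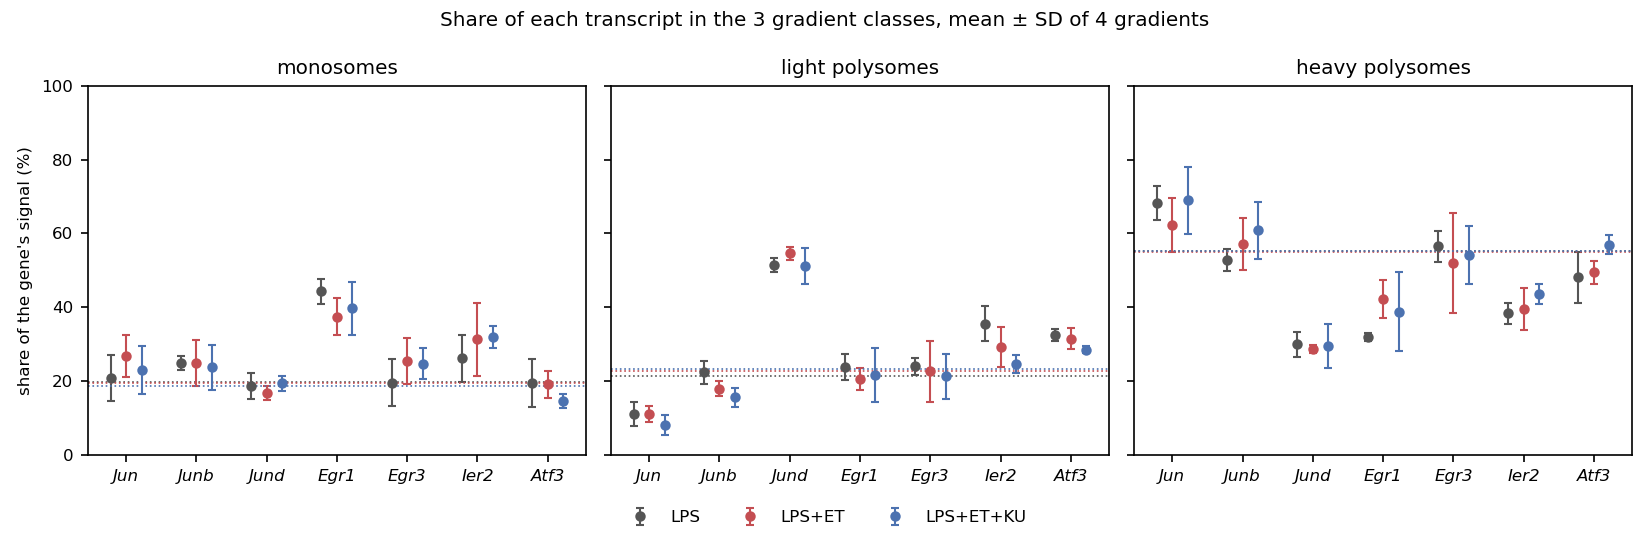
Share of each transcript's signal (percent, 0 to 100, each fraction weighted alike) in monosomes, light and heavy polysomes by treatment, as mean ± SD of 4 gradients; dotted lines are the median of 8000 genes in each treatment. Jund lay above 50% in light polysomes and Egr1 at 37.4% to 44.3% in monosomes in all treatments.

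The genes around the members were read from lists, whose counts stand beside the 7.88% of all tested genes that rose with etoposide, the 4.81% that fell, and the 0.455% called in either direction with the inhibitor. Of 13 other AP-1 zipper factors, 10 were tested and 1 rose with etoposide, Fosl2, a further Fos homologue, from 1.16 ± 0.5 to 12.1 ± 2.76 CPM (log2 3.33 ± 0.29, adjusted p = 5.50e-06). It was at 23 ± 2.29 CPM in LPS+ET+KU, not called against LPS+ET. A count of 1 in 10 is near the share over all genes, and the list's median was -0.07, beside 0.03 over all genes. Of 32 other immediate early genes, 30 were tested, 10 rose and 2 fell with etoposide, with a median of 0.61. The largest rises were in Klf4, Nr4a3, Arc and Nr4a2. Klf4, Arc and Nr4a2 were near the floor in LPS and passed the filter on low counts through the groups with etoposide. Their calls are part of the 10 in this list. Nr4a3, an orphan nuclear receptor, went from 2.56 ± 0.657 to 23.2 ± 3.36 CPM (3.17 ± 0.37), its relative Nr4a2 from 0.428 ± 0.147 to 2.34 ± 1.11 CPM (2.48 ± 0.50), and Arc from 0.325 ± 0.113 to 2.20 ± 0.294 CPM (2.73 ± 0.37). Klf4 was counted 1 time in LPS and 37 times in LPS+ET. Scaled for the total counts of the treatments, that was a ratio of 48.4 with an exact 95% counting interval of 8.17 to 1960. The 2 that fell, named after their values were seen, were Myc (-1.62 ± 0.33, adjusted p = 0.00300) and Per1 (-1.52 ± 0.37, adjusted p = 0.00918).

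Against LPS+ET, 1 of these 30 passed in LPS+ET+KU. Dusp4, a phosphatase of the MAP kinases, rose from 45.6 ± 8.55 to 130 ± 24.2 CPM (1.52 ± 0.18, adjusted p = 0.00143), and the list's median was 0.34. Among 16 tested upstream factors and kinases (Srf, Elk and Mapk genes among them) and the 2 Egr corepressors Nab1 and Nab2, none passed in either comparison, with medians between -0.18 and 0.07. Of 8 stress factors around Atf3, Cdkn1a, the p53-induced cell cycle inhibitor, rose with etoposide from 28.4 ± 4.68 to 705 ± 176 CPM (4.64 ± 0.29, adjusted p = 5.28e-07). Cebpb also rose (1.70 ± 0.23), and Atf4, an activator of Atf3 in the stress response, fell from 1340 ± 171 to 619 ± 197 CPM (-1.12 ± 0.25, adjusted p = 0.00576). None of the 8 passed against LPS+ET in LPS+ET+KU, where Atf4 stood at 1550 ± 455 CPM and the list's median was 0.87.

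Likeness of pattern was read as the root mean square difference of centred log2 levels over the 12 gradients, where 0 is an identical course. Before taking logs, 0.5 CPM was added to each level. Among the members, Ier2 and Atf3 were closest to each other (0.28), Jun and Junb next (0.29), then Jund and Egr3 (0.45), Egr1 and Egr2 (0.47) and Fos and Fosb (0.60). The nearest other genes to Fos were 2600006K01Rik, Pvrl4 and Pmaip1, at 0.39 to 0.40. Pmaip1, a p53-induced cell death gene, went from 65.0 to 377 and 398 CPM on average. Ada (0.40), Tubb4b and Uts2b were nearest to Egr1, where Ada went from 5.83 to 17.0 and 4.74 CPM. Nearest to Atf3 were Hemk1 (0.21), Cspg5 and Fuz, to Jun 1700009P17Rik (0.29), Calcoco1 and Hey1, and to Junb F2r (0.26), Tmem116 and Hamp. Jund was nearest to Ccdc85b (0.10), Rps6 and Mettl21d, and Ier2 to Gm12460 (0.16), Zfp458 and Cxcr5. For Fosb they were Rap2a, Lrrc51 and Marcks (0.31 to 0.32), for Egr2 Fah, Plxnb2 and Tifab (0.26 to 0.31) and for Egr3 Lipt1, Gas2l3 and Lyrm9 (0.25 to 0.26). This measure favours genes with small spread and is given as a description. The added 0.5 CPM also shrinks changes of transcripts near the floor, Fos, F2r and Hamp among them. In LPS, F2r averaged 0.372 CPM and Hamp 0.0763 CPM, against 186 CPM for Junb.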

How the data were processed

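The authors sequenced 3′ end tags from each polysome fraction, removed duplicates by random barcode bases, mapped to GRCm38/mm10 and deposited raw counts per gene and library. The submitters' processing notes name TopHat2 2.0.12, HTSeq and DESeq2 1.6.3. The labels disagree on the sucrose range and once spell the inhibitor KU59933. Here the 13 fractions of a gradient, or of a class, were added up and tested with edgeR 4.0.16 (TMM, filterByExpr, quasi-likelihood) over all 12 gradients by treatment, at a Benjamini-Hochberg adjusted p under 0.01. Heavy shares were tested with limma 3.58.1 on log2 odds, with 0.5 counts added. All 10 members passed the filter on low counts in the summed comparisons, and 8 or 9 in the classes. Fos and Fosb passed it through the groups with etoposide. The mean log2 TMM factor was 0.11 higher in LPS+ET, and 0.12 higher in LPS+ET+KU, than in LPS. Gradients of the same library set deviated together (12 of 12 correlations above 0.1, median 0.585, against 5 of 36 between sets), so the sets pair the gradients, and values with the set as a block are given where they change a call. The pairing comes from the column names, since for some sets these match a treatment and not 1 labelled replicate. Nothing in the labels ties a gradient to a mouse or culture, so p-values measure the spread between these gradients, which may be partly technical. The exception is the test over all 13 fractions at once, which took the libraries of a gradient as independent. Counting intervals cover counting error only. The alternatives were the block, DESeq2 1.42.0, RLE size factors, no filter, the compared gradients alone, equal weight per fraction and leaving out each gradient. Scripts (R 4.3.3, Python 3.11.15) were tested on simulated data. The 10 members and all lists were chosen with earlier results of these data known. Named genes were the members, at most 4 called genes with the largest change per list and comparison, and the 3 genes nearest in pattern to each member. A further marker of the fixed B-cell list is not reported here.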

Additional observations from a re-analysis of the deposited data

Results flagged for a closer look

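In 51 groups of 4 gradients (levels of the 10 members and heavy polysome shares of 7, in 3 treatments), 2 held a value far from the other 3 by Dixon's ratio, where chance gives about 1 in 20. Jund in the LPS+ET gradient of LUL16 stood at 318 CPM, against 125 to 154 in the other LPS+ET gradients. Light polysomes, where Jund peaked, supplied 40.6% of the counts of that gradient and 20.9% to 26.8% of the others. With each fraction weighted alike it stood at 236 CPM, against 126 to 166. Junb in the LPS gradient of LUL18 stood at 262 CPM, against 152 to 164 in the other LPS gradients, and at 237 against 144 to 174 with each fraction weighted alike. The part of library composition in either value was not tested. The lone LPS library of fraction 17, with 777 counts, held 0 counts of the 10 members.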

How the results depend on the processing

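Counts of members called and their log2 fold changes were recomputed under each alternative. Over the member results, 721 recomputed values kept direction and call, 67 lost the call, 22 gained it and 16 changed sign. With library set as a block, members called over fractions 4 to 16 for LPS+ET+KU against LPS+ET went from 2 to 4, in light polysomes with etoposide from 2 to 4 and in monosomes with the inhibitor from 1 to 3, and Fos with the inhibitor stood at -0.07. In the fits of level, the block changed no member's call beyond those given in the report. The inhibitor's profile test gave 6 members with it (from 5). Without the block, heavy polysomes against monosomes gave 1 member in LPS+ET (from 2) and 1 in LPS+ET+KU (from 4). From the 8 gradients compared alone, the inhibitor gave 0 members over all fractions, 0 in monosomes and 0 in heavy polysomes, and Atf3 with etoposide stood at 0.02. With equal weight per fraction, the inhibitor gave 1 member, and values of the opposite sign were Atf3 0.13 and Ier2 0.19 with etoposide, Fos -0.15 with the inhibitor and Jund 0.11 in LPS+ET+KU against LPS. In LPS+ET+KU, heavy polysomes against monosomes gave 2 members with DESeq2 and 2 with no filter. The shape term alone gave 0 members in both profile tests. Leaving out single gradients gave 1 to 2 members for the inhibitor over all fractions, 0 to 1 in monosomes and 1 to 2 in heavy polysomes. For etoposide it gave 0 to 2 in light and 2 to 5 in heavy polysomes. It gave 3 to 5 in the inhibitor's profile test, and for heavy polysomes against monosomes 1 to 4 in LPS+ET and 2 to 5 in LPS+ET+KU. Without single gradients, uncalled values crossed 0 for Atf3 (-0.05 to 0.02) and Ier2 (-0.17 to 0.01) with etoposide, Fos (-0.20 to 0.41) and Egr3 (-0.75 to 0.14) with the inhibitor, and Jund (-0.18 to 0.01) in LPS+ET+KU against LPS. Egr1 in LPS+ET+KU against LPS was called in 3 of 8 such fits (-1.10 to -0.85). Gene counts moved as well. For etoposide 1618 genes became 3403 with the block and 1057 with equal weight. For the inhibitor 58 became 811 with the block, 412 with DESeq2, 17 with equal weight, 0 from the 8 gradients alone, 172 without the LPS+ET gradient of LUL16, and 19 to 31 without any other single gradient of that comparison but the LPS+ET+KU gradient of LUL16 (75). For LPS+ET+KU against LPS 1361 became 3589 with the block, 2263 with DESeq2, 877 with equal weight and 755 to 830 without the LPS gradient of LUL15, LUL16 or LUL18 or the LPS+ET+KU gradient of LUL18. In the classes the block took etoposide calls from 850 to 2195 in monosomes, 1055 to 2482 in light and 1101 to 2338 in heavy polysomes, and inhibitor calls from 19 to 502, 29 to 531 and 65 to 372. DESeq2 gave 1762 in heavy polysomes for etoposide, and 110, 203 and 279 for the inhibitor, where the compared gradients alone gave 1, 2 and 3 and no filter gave 37 in monosomes. Leaving out single gradients gave 2 to 38, 2 to 52 and 9 to 105 for the inhibitor in these classes, and as few as 520 in monosomes and 721 in heavy polysomes for etoposide. Heavy share calls for etoposide went from 28 to 0 with counts as deposited, 7 at a mean of 30 counts, 4 to 21 without single gradients and 43 without fraction 4, an alternative chosen after seeing the data. The profile tests gave 142 and 110 genes by shape alone against 3208 and 839, 1919 for the inhibitor with the block and as few as 406 without a single gradient. Heavy polysomes against monosomes without the block gave 2157 genes in LPS+ET (from 3486, and 2238 without LUL15) and 2317 in LPS+ET+KU (from 5398). The cause of these changes was not tested. Fos, Fosb and Egr2 are limited by depth, with 24, 7 and 35 counts in LPS.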
